A study of Mus musculus with 4 samples.

Results

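The 10 histone acetyltransferase genes were taken by symbol from the tables of male germ cell transcripts, as 10 of the 24411 genes listed in each library. They are *Kat2a*, *Kat2b* and *Hat1* of the GNAT family, *Kat5*, *Kat6a*, *Kat6b*, *Kat7* and *Kat8* of the MYST family, and *Ep300* and *Crebbp* of the p300/CBP family. GFP-positive cells were sorted from testes at postnatal day 18, and their polyadenylated RNA was sequenced. The control group holds 2 *Zfp541*+/- libraries and the other group 2 libraries labelled *Zfp541* KO, whose allele was made to lack exons of the zinc finger gene *Zfp541*. The paper describes a deletion that runs from the opening exon across many others. It reports ZFP541 protein as absent from KO testis by immunoblot, with diminished immunostaining. All mice carried the *Rec8-3FH-GFP* KI allele, which couples GFP to the meiotic cohesin REC8. One control testis was heterozygous and the other homozygous for this allele, both *Zfp541* KO testes were homozygous, and the labels do not say which control was which. The strain is given as a mix of C57BL/6 and CBA. Levels are in TPM, which counts transcripts per length and has a fixed sum per library, so sequencing depth is unknown and counting error has no interval here. Libraries with the KO label are called KO-labelled libraries 1 and 2.

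Histone acetyltransferases move an acetyl group from acetyl-CoA to lysines of histone tails, which loosens chromatin and makes docking sites for bromodomain proteins. Histone deacetylases such as HDAC1 and HDAC2 remove the same mark. In male germ cells histones are heavily acetylated in spermatids, before protamines replace them. KAT2A and KAT2B act in the SAGA and ATAC co-activator complexes, KAT5 in the TIP60 complex, KAT6A, KAT6B and KAT7 in BRPF or JADE complexes, KAT8 in the MSL and NSL complexes, and HAT1 acetylates newly made histone H4. EP300 and CREBBP are recruited by many transcription factors and acetylate histone H3 at enhancers.

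The libraries differed within the control group before any comparison of genotype. *Zfp541* was at 112 and 72.2 TPM in the control pair and 136 and 151 TPM in the KO-labelled libraries. Its level was thus higher in both KO-labelled libraries than in either control. Values per gene do not separate deleted from remaining exons, so which exons gave this signal was not tested. For these 4 libraries the genotype rests on the label alone. *Rec8*, the gene that carries the reporter, was at 7.05 and 27.9 TPM against 27.7 and 19.4 TPM, with overlap. *Sycp3*, for a core component of meiotic chromosome axes, was at 1108 and 1263 TPM in the control pair and 2093 and 2196 TPM in the KO-labelled libraries. Meiotic RNA was thus present in all 4 libraries, but the purity of the sorted cells was not tested. Summed TPM of 10 leptotene and zygotene markers was 3045 and 3491 in the controls against 5788 and 6139, and 9 of the 10 were higher in both KO-labelled libraries than in either control. For 10 pachytene markers the sums were 5029 and 2246 against 1196 and 1816, with 5 lower in both and 2 higher in both. Of these sums *Ldhc* alone made up 3659 and 1819 against 768 and 1230 TPM. Over the 14512 genes tested, 38.6% were higher in both and 12.1% lower in both. The 10 round spermatid markers summed to 433 and 183 against 124 and 153, and the protamine *Prm1* was listed at 0 in every library but control 1. Macrophage and Leydig cell markers differed widely between the controls. The 6 macrophage markers summed to 1737 TPM in control 1 and 19.5 in control 2, against 1439 and 1038, and 6 Leydig cell markers to 3603 and 19.4 against 392 and 606. The 8 Sertoli cell markers ranged from 837 to 1205 TPM over the 4 libraries, the 10 spermatogonial markers from 336 to 904, 5 peritubular myoid markers from 12.3 to 24.7 and 5 red blood cell markers from 20.3 to 71.5. The part of these cells in the results below was not tested, and in sorted bulk RNA a change in cell make-up and a change of RNA per cell cannot be told apart.

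No acetyltransferase passed an FDR of 0.05 between the groups in limma, and neither did any of the 14512 genes tested (percent called 0). All 10 members passed the filter of a mean of at least 1 TPM. There were 5 members higher in both KO-labelled libraries than in either control, namely *Ep300*, *Crebbp*, *Kat6a*, *Kat6b* and *Hat1*, where 38.6% of all genes tested showed that order. Another 2 members, *Kat5* and *Kat8*, were lower in both, against 12.1% of all genes. In *Kat2a*, *Kat2b* and *Kat7* the groups overlapped. At an unadjusted p under 0.05 from limma there were 4 members, *Ep300*, *Crebbp* and *Kat6a* higher and *Kat8* lower, beside 14.4% of all genes, 10.7% higher and 3.73% lower. The median log2 fold change of log2(TPM + 1) was 0.65 over the 10 members and 0.28 over all genes, with 6 of the 10 and 69% of all genes above 0. Without control 2 this order turned, with a median of 0.048 over the members and 0.15 over all genes, and without control 1 the medians were 0.80 and 0.44.

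**Figure D1:**
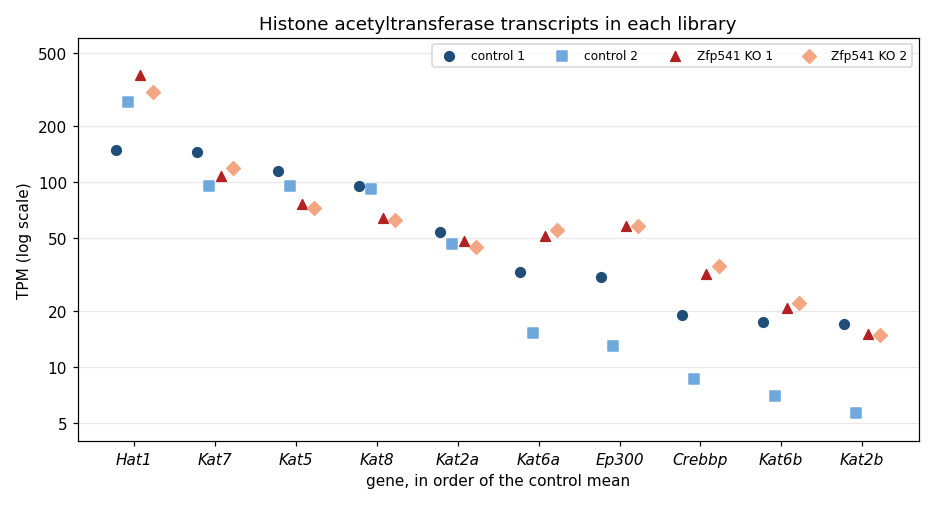
TPM (log axis) of the 10 histone acetyltransferase genes in the 2 control and 2 *Zfp541* KO libraries, 1 point per library, ordered by the control mean. The red points of *Ep300*, *Crebbp*, *Kat6a*, *Kat6b* and *Hat1* lie above both blue points and those of *Kat5* and *Kat8* below, while control 2 lies lowest in 6 of the 10 genes.

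*Ep300* and *Crebbp* encode closely related acetyltransferases and gave the highest and second-highest fold changes of the 10. *Ep300* (ENSMUSG00000055024, chromosome 15 from 81585351 to 81652077 of GRCm38, forward strand) was at 30.8 and 13.0 TPM in the control pair and 57.8 and 57.7 TPM in the KO-labelled libraries. The KO libraries were almost equal and above both controls, which differed from each other 2.36-fold. The means were 21.9 ± 12.6 and 57.7 ± 0.0778 TPM (SD, n = 2), a ratio of 2.63, with a log2 fold change of 1.47 ± 0.45 (SE, limma adjusted p = 0.320). *Crebbp* (ENSMUSG00000022521, chromosome 16 from 4081328 to 4213997, reverse strand) was at 19.2 and 8.64 TPM in the control pair and 31.9 and 35.1 TPM in the KO-labelled libraries. Again the groups did not overlap and control 2 was lowest. Its log2 fold change was 1.31 ± 0.44 (SE, limma adjusted p = 0.329). Both genes had a similar profile over the libraries, and the ratio of *Ep300* to *Crebbp* stayed between 1.51 and 1.81, at 1.61 and 1.51 in the controls and 1.81 and 1.64 in the KO-labelled libraries. This ratio within a library does not depend on how libraries are scaled. Its log2 value was 0.15 higher in the KO group (exact permutation test over samples, two-sided, p = 0.333, the smallest that 2 against 2 libraries can give).

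*Kat6a* and *Kat6b*, which encode the MYST enzymes MOZ and MORF, were also higher in both KO-labelled libraries. *Kat6a* (ENSMUSG00000031540, chromosome 8 from 22859535 to 22943259) was at 32.5 and 15.3 TPM in the control pair and 51.1 and 54.7 TPM in the KO-labelled libraries. The log2 fold change was 1.21 ± 0.41 (SE, limma adjusted p = 0.331), and the means stood in a ratio of 2.22. *Kat6b* (ENSMUSG00000021767, chromosome 14 from 21481434 to 21672478) was at 17.6 and 6.96 TPM against 20.8 and 22.3 TPM. Its groups were apart by a narrow margin, since control 1 came close to KO 1, and its log2 fold change of 0.89 ± 0.50 (SE, limma adjusted p = 0.465) was mostly the distance from control 2, as the difference from control 1 alone was 0.28. *Kat6a* exceeded *Kat6b* in every library, by 1.84 and 2.20 times in the controls and 2.46 and 2.46 times in the KO-labelled libraries. The log2 ratio of the pair was 0.29 higher in the KO group (exact permutation test over samples, two-sided, p = 0.333).

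*Kat5*, *Kat7* and *Kat8* make up the rest of the MYST family and were expressed at higher levels. *Kat8* encodes MOF, the main enzyme for lysine 16 of histone H4, and lies on chromosome 7 from 127912516 to 127925837 (ENSMUSG00000030801). It was at 95.7 and 91.5 TPM in the control pair and 63.8 and 62.6 TPM in the KO-labelled libraries. Both pairs were tight and far apart, with means of 93.6 ± 2.95 and 63.2 ± 0.877 TPM (SD, n = 2) and the lowest log2 fold change of the 10, at -0.56 ± 0.18 (SE, limma adjusted p = 0.320). *Kat5* encodes TIP60, which acetylates histones H4 and H2A and takes part in the DNA damage response, and lies on chromosome 19 from 5603014 to 5610237 (ENSMUSG00000024926). It was at 114 and 94.7 TPM in the control pair and 76.0 and 72.5 TPM in the KO-labelled libraries. The groups did not overlap, and its log2 fold change was -0.48 ± 0.20 (SE, limma adjusted p = 0.366). *Kat7*, for HBO1, the enzyme tied to replication origins, was at 145 and 95.1 TPM against 107 and 118 TPM. The KO libraries lay between the controls, with a log2 fold change of -0.06 ± 0.27 (SE, limma adjusted p = 0.934). By GENCODE, *Kat5* shares 426 of its 3509 exonic bases with *Rnaseh2c* on the opposite strand, and *Kat8* 122 of 2891 with *Prss8*. The strand setting of the counting is not given in the sources used here, so reads from these stretches cannot be assigned to 1 gene. *Rnaseh2c* was at 101 and 164 TPM in the control pair and 84.0 and 88.8 TPM in the KO-labelled libraries, and *Prss8* was at or under 1.80 TPM in all 4.

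*Hat1*, *Kat2a* and *Kat2b* of the GNAT family had no common order. *Hat1* (ENSMUSG00000027018, chromosome 2 from 71388958 to 71441622) was the most abundant member in every library, at 149 and 272 TPM in the control pair and 380 and 305 TPM in the KO-labelled libraries. It was the 1 member with its lowest value in control 1, and the controls differed by more than control 2 did from either KO library in log2 terms. Its log2 fold change was 0.75 ± 0.36 (SE, limma adjusted p = 0.407). The summed leptotene and zygotene markers given above were also lowest in control 1 and highest in the KO-labelled libraries, and their part in the *Hat1* values was not tested. *Kat2a*, for GCN5, on chromosome 11 from 100704746 to 100712465 (ENSMUSG00000020918), was the steadiest member, at 53.9 and 46.5 TPM in the control pair and 48.1 and 44.7 TPM in the KO-labelled libraries. The groups overlapped, with a log2 fold change of -0.11 ± 0.21 (SE, limma adjusted p = 0.821). Its paralogue *Kat2b*, for PCAF, on chromosome 17 from 53566861 to 53672720 (ENSMUSG00000000708), was the least abundant member, at 17.2 and 5.63 TPM against 15.1 and 14.9 TPM. Control 1 was above and control 2 below both KO libraries, the same order as the summed macrophage markers, whose part was not tested. The log2 fold change was 0.55 ± 0.58 (SE, limma adjusted p = 0.679). *Kat2a* exceeded *Kat2b* by 3.14 times in control 1, 8.27 times in control 2 and 3.18 and 2.99 times in the KO-labelled libraries, so the ratio set control 2 apart and not a genotype (log2 difference -0.72, exact permutation test over samples, two-sided, p = 0.667).

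Promoter sequences are shown for the 2 p300/CBP genes and *Hat1*, which were higher in both KO-labelled libraries, and for *Kat5* and *Kat8*, which were lower in both, so that the start regions of members with opposite order can be read side by side. Each is from RefSeq on GRCm38.p6, runs 5′ to 3′ on the strand of the gene, and covers 250 bases before to 50 after an annotated start. Capitals mark matches on either strand to the GC box (GGGCGG), the CCAAT box, the ETS core CCGGAAG, the E-box CACGTG, the NRF1 motif or the cyclic AMP response element TGACGTCA, and overlapping matches run together. By GENCODE, *Ep300*, *Crebbp*, *Hat1* and *Kat5* begin upstream of the start shown here.
Ep300, chr15:81585964-81586263, forward strand: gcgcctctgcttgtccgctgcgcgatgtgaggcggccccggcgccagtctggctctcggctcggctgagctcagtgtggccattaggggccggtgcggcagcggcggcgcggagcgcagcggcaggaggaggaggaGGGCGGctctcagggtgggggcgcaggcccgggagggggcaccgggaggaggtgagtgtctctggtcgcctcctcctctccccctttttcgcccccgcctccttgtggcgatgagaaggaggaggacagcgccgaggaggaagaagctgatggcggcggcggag
Crebbp, chr16:4213355-4213654, reverse strand: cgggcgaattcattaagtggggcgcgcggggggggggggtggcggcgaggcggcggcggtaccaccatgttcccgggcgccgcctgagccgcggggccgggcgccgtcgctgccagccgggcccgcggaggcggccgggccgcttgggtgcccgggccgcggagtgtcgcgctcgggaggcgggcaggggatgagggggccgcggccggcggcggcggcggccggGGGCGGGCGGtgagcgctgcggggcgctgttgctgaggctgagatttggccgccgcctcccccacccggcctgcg
Hat1, chr2:71389010-71389309, forward strand: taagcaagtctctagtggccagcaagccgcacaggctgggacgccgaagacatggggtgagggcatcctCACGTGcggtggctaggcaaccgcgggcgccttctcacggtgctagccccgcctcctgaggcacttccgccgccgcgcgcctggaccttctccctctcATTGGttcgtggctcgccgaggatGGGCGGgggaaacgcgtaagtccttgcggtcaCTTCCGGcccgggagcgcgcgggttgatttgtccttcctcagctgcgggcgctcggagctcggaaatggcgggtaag
Kat5, upstream of its 2 starts, chr19:5610045-5610344, reverse strand: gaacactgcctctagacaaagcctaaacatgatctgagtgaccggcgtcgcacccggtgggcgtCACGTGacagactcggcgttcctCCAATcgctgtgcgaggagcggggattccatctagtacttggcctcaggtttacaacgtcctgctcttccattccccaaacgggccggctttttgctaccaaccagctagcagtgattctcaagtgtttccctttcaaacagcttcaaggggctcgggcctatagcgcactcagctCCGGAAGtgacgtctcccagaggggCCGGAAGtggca
Kat8, upstream of its 2 starts, chr7:127912267-127912566, forward strand: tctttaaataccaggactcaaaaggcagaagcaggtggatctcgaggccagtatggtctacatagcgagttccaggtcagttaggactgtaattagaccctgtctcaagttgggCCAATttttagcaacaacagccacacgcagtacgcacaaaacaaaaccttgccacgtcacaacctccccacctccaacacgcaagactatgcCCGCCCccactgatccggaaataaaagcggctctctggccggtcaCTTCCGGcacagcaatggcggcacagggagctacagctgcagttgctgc

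The table of 32851 promoters held 13 of 9 members and none of *Kat6a*. GC content was 72.3% in the *Ep300*, 82.0% in the *Crebbp* and 66.7% in the *Hat1* window, and 57.0% and 53.0% in the *Kat5* and *Kat8* windows shown. The other *Kat5* window, at the downstream start, reached 69.7%. Over the 13 windows the median was 57.0%, with a range of 47.0% to 82.0%, and over all promoters it was 52.7%. The members' windows held a median of 19 CpG dinucleotides against 7 over all promoters. Windows of *Ep300* and *Crebbp* held GC boxes alone among the 6 motifs, 1 and 2 overlapping matches, and both *Kat6b* windows, which overlap each other, held 8 GC boxes. The *Hat1* window held 1 match each to the GC box, CCAAT, the E-box and the ETS core. The *Kat5* window shown had 1 CCAAT, 1 E-box and 2 ETS cores, and that of *Kat8* 1 CCAAT, 1 GC box and 1 ETS core. Of the 13 windows, 8 (61.5%) held a GC box, against 35.7% of all promoters, 6 (46.2%) a CCAAT against 37.4%, 4 (30.8%) an ETS core against 8.86%, 2 (15.4%) an E-box against 7.15% and 1 (7.69%), that of *Kat7*, the NRF1 motif against 4.6%. None held the cyclic AMP response element, which 1.79% of all promoters do. Several windows belong to 1 gene, and the matches are descriptions of letters.

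Transcript length, which the choice of genes did not use, differed widely among the members. The longest protein-coding transcripts of *Crebbp*, *Ep300*, *Kat6a* and *Kat6b* measured 10820, 9566, 9113 and 7699 nucleotides, whereas those of *Kat8* and *Kat5* measured 1579 and 2154. *Hat1*, higher in both KO-labelled libraries like the 4 long genes, was short, at 1899. *Kat2a*, *Kat7* and *Kat2b* lay between, at 3046, 3560 and 4653. Across the 10 members, which share the same 4 libraries, the log2 fold change correlated with log2 length at Pearson's r = 0.85 (Spearman's rho = 0.87), and at r = 0.66 (rho = 0.60) after correction of each library for length. Over the 14374 genes tested with a length the values were r = 0.27 and rho = 0.37. The difference of control 2 from control 1 correlated with length at r = -0.81, and 9 of the 10 members were lower in control 2. Genes at large showed this too. Their median difference of control 2 from control 1 was 0.15 up to 1000 nucleotides and -0.04 from 1000 to 2000. It was -0.32 from 2000 to 4000, -0.59 from 4000 to 8000 and -0.80 above that. Against control 1 alone the KO mean of log2(TPM + 1) correlated with length at r = 0.53, and against control 2 alone at r = 0.95. The median log2 fold change was -0.17 in 1133 genes with transcripts of up to 1000 nucleotides, 0.03 in 3107 of 1000 to 2000, 0.26 in 5664 of 2000 to 4000, 0.51 in 3776 of 4000 to 8000 and 0.74 in 694 longer genes. In the last group control 2 was 0.80 below control 1 on the log2 scale, and the KO-labelled libraries differed from each other by a median of 0.00 to 2 decimals.

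**Figure D2:**
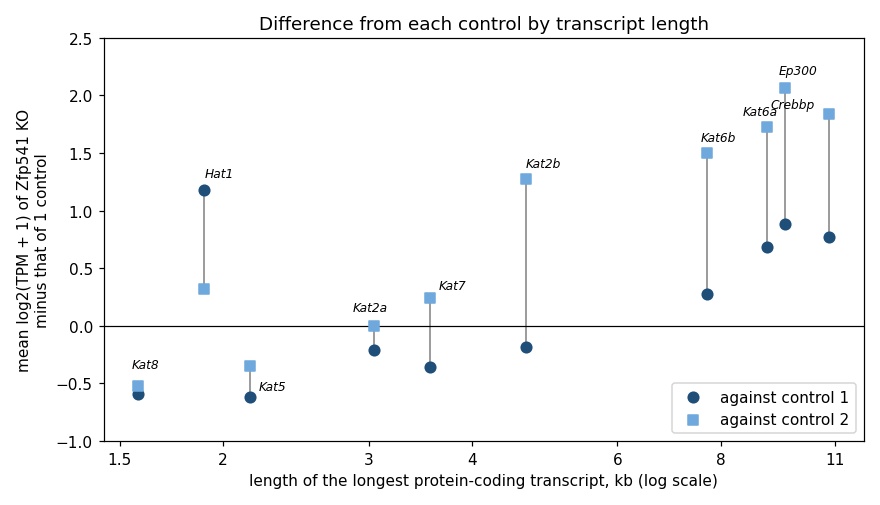
Mean log2(TPM + 1) of the 2 KO-labelled libraries minus that of control 1 (dark circles) or control 2 (light squares), for each member, against the length of its longest protein-coding transcript (log axis). The difference from control 2 lies above that from control 1 in every member but *Hat1*, and *Ep300*, *Crebbp*, *Kat6a*, *Kat6b* and *Hat1* lie above 0 and *Kat5* and *Kat8* below 0 against either control.

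After correction of each library for transcript length, the 7 members kept their direction. *Ep300* was at a log2 fold change of 1.01, *Crebbp* at 0.81, *Kat6a* at 0.76, *Kat6b* at 0.49 and *Hat1* at 0.91, with adjusted p of 0.334 to 0.592 from limma. *Kat5* and *Kat8* were at -0.36 and -0.33 (adjusted p = 0.463 and 0.463 from limma). Median-ratio scaling, which took the median of all genes from 0.28 to -0.0044, left *Ep300* at 1.16, *Crebbp* at 1.00 and *Kat6a* at 0.89 and placed *Kat5* at -0.80 and *Kat8* at -0.88. *Kat5* and *Kat8* thus stayed below 0 and the 3 long genes above it under both treatments.

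**Figure D3:**
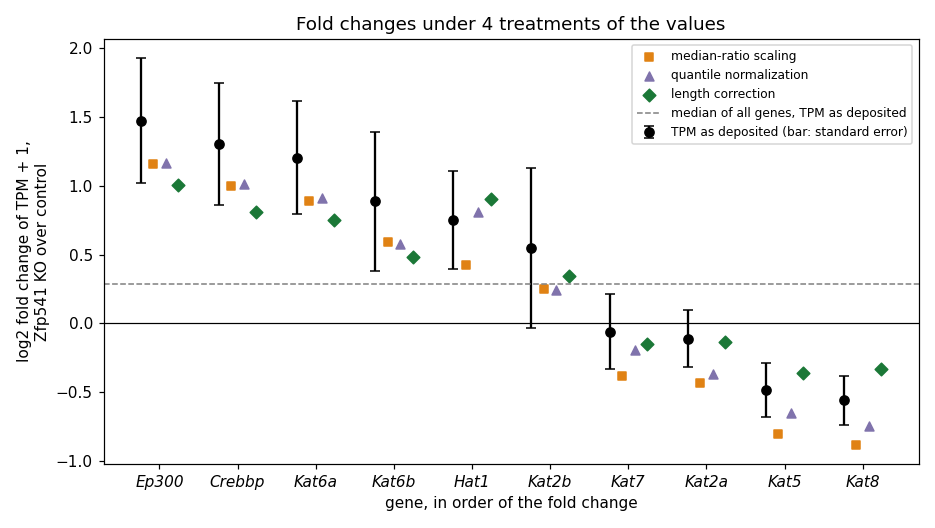
Log2 fold change of TPM + 1 (*Zfp541* KO over control) of each member with the TPM as deposited (black circles, bars are the standard error from limma), after median-ratio scaling (squares), quantile normalization (triangles) and a correction for transcript length (diamonds). The dashed line is the median of 0.28 over all genes tested, and no member changes sign among these 4.

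The call itself depended on the controls. With control 1 left out, the lone control 2 is assumed to vary as the KO libraries do, and 6 members passed the FDR in limma, 5 higher and 1 lower, where 48.1% of all genes passed, 38.7% higher and 9.47% lower. With control 2 left out, 6 members also passed, 4 higher and 2 lower, where 28.4% of all genes did, 15.5% higher and 12.9% lower. Both fits use the same KO-labelled libraries, so they are not independent. *Crebbp* was at a log2 fold change of 1.84 without control 1 and 0.77 without control 2, and *Kat6a* at 1.72 and 0.69. *Kat2b* was at a log2 fold change of 1.27 without control 1 and -0.18 without control 2, and *Kat7* at 0.24 and -0.36. *Hat1* was at 0.32 without control 1 and 1.18 without control 2, and *Ep300* at 2.06 and 0.88, whereas *Kat8* stayed at -0.53 and -0.59.

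Levels per transcript length ordered the members from *Hat1* through *Kat7*, *Kat5*, *Kat8*, *Kat2a*, *Kat6a*, *Ep300*, *Crebbp* and *Kat6b* to *Kat2b* in the control means. Each control library on its own gave this same order, in places by a narrow margin. In control 2 *Kat7* was at 95.1 and *Kat5* at 94.7 TPM. Taken as ranges over the 2 controls, *Kat7* overlapped with *Kat5* and *Kat5* with *Kat8*. From *Kat6a* down to *Kat2b* each range also overlapped with the next. *Hat1* stood above *Kat7*, and *Kat2a* between *Kat8* and *Kat6a*, without overlap. In the KO-labelled libraries *Ep300* and *Kat2a* exchanged places in the order of the means. *Ep300* was below *Kat2a* in both controls, at 30.8 and 13.0 against 53.9 and 46.5 TPM, and above it in both KO libraries, at 57.8 and 57.7 against 48.1 and 44.7 TPM.

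As a share of the summed TPM of the 10 genes, a measure that does not depend on scaling, the p300/CBP pair made up 7.40% and 3.34% in the controls and 10.5% and 11.8% in the KO-labelled libraries. The MYST family made up 60.0% and 46.7% against 37.5% and 42.0%, so that the groups did not overlap in the share of either family. The summed TPM of the MYST family did overlap, at 405 and 304 against 319 and 330. Within it *Kat6a* and *Kat6b* were higher in TPM in both KO-labelled libraries. As a share *Kat6a* was also higher in both, at 4.81% and 2.36% against 6.00% and 6.95%. The *Kat6b* share overlapped, at 2.61% and 1.07% against 2.44% and 2.83%. The GNAT family held 32.6% and 49.9% against 52.0% and 46.2%, which overlapped, and *Hat1* alone was 22.1% and 41.9% against 44.6% and 38.7%. *Kat5* took 16.9% and 14.6% against 8.92% and 9.21%, and *Kat8* 14.2% and 14.1% against 7.49% and 7.95%. *Kat2a*, whose TPM overlapped, was lower in both KO-labelled libraries as a share, at 7.98% and 7.17% against 5.65% and 5.67%. The sum of the 10 genes was 675 and 649 TPM in the controls against 852 and 787 TPM. A gene with an unchanged TPM thus has a smaller share in the KO-labelled libraries.

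**Figure D4:**
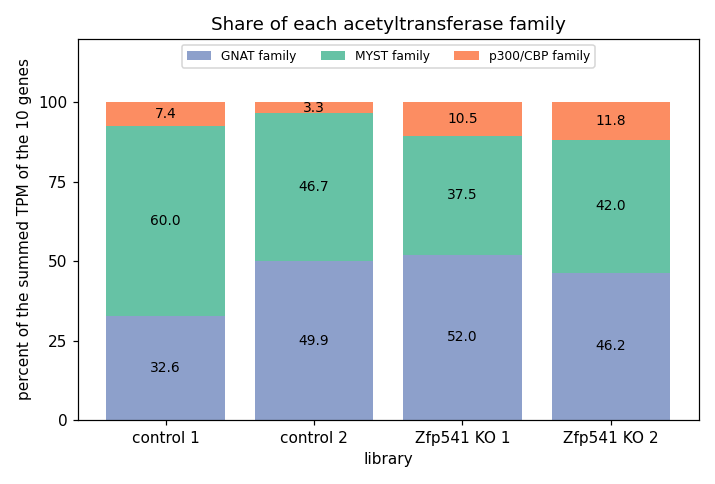
Share of the summed TPM of the 10 genes (percent, stacked from 0) held by the GNAT, MYST and p300/CBP families in each of the 4 libraries. The p300/CBP share is larger and the MYST share smaller in both KO-labelled libraries than in either control, and the GNAT share of control 1 is the smallest of the 4. The summed TPM of the MYST family overlapped between the groups.

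The deacetylases, which act against these enzymes, were compared next. The 10 acetyltransferases summed to 675 and 649 TPM in the control pair and 852 and 787 TPM in the KO-labelled libraries, and the 11 zinc-dependent deacetylases to 626 and 772 against 951 and 853 TPM. The ratio of the sums was 1.08 and 0.841 in the controls and 0.895 and 0.923 in the KO-labelled libraries (log2 difference -0.07, exact permutation test over samples, two-sided, p = 1). The KO ratios lay between those of the controls. Of the 11 deacetylases, 4 were higher in both KO-labelled libraries, none was lower in both, and none passed the FDR in limma (2 at an unadjusted p under 0.05). Over all genes these shares were 38.6%, 12.1% and 14.4%, and the median log2 fold change was 0.31 for the deacetylases against 0.28. *Hdac2* was at 149 and 161 TPM in the control pair and 272 and 265 TPM in the KO-labelled libraries (log2 fold change 0.79, adjusted p = 0.310 from limma), and *Hdac1* at 226 and 218 against 324 and 267 TPM. *Hdac4*, at 0.88, and *Hdac7*, at -0.27, were the ends of the list in log2 fold change, but the *Hdac7* controls of 11.7 and 1.22 TPM spanned the KO-labelled libraries at 3.42 and 3.39 TPM, and its value was 0.99 without control 1 and -1.53 without control 2. Of the 7 sirtuins, the NAD-dependent deacetylases, 4 were higher in both and 2 lower in both, beside 38.6% and 12.1% of all genes, from *Sirt6* at a log2 fold change of 0.98 to *Sirt3*, a mitochondrial enzyme, at -0.75.

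The subunits that carry the acetyltransferases onto chromatin were taken as lists. The 5 complex lists and the HAT1 partners hold 67 genes, each counted once, all of which were tested and none of which passed the FDR in limma. Of these, 30 (44.8%) were higher and 7 (10.4%) lower in both KO-labelled libraries, beside 38.6% and 12.1% of all genes, and their median log2 fold change was 0.28, that of all genes. By list, the median was 0.23 for 18 SAGA subunits, 0.35 for 11 ATAC subunits, 0.20 for 17 TIP60 complex subunits, 0.50 for 9 subunits of the MOZ/MORF and HBO1 complexes, 0.38 for 11 MSL and NSL subunits and 0.02 for 6 HAT1 partners and histone chaperones. *Trrap*, the large scaffold of the SAGA and TIP60 complexes, was at 52.3 and 25.6 TPM in the control pair and 64.7 and 68.2 TPM in the KO-labelled libraries.

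Within the lists, subunits of 1 complex stood at both ends. *Tada2a*, the adaptor of the ATAC complex, was at 19.3 and 17.2 TPM in the control pair and 46.0 and 44.4 TPM in the KO-labelled libraries (log2 fold change 1.26, adjusted p = 0.310 from limma). *Chrac1*, a histone-fold subunit of the same complex, was at 297 and 287 TPM against 138 and 140 TPM (log2 fold change -1.07, adjusted p = 0.310 from limma). In both genes the controls were close to each other and the groups far apart. After the length correction *Chrac1* was at -0.62 and *Tada2a* at 1.38. SAGA ranged from *Atxn7* at 0.97 to *Taf10* at -0.86, and the TIP60 complex from *Mbtd1* at 1.00 to *Morf4l1* at -0.21. *Epc1* and *Ep400*, both large TIP60 subunits, were at 0.20 and 0.42, but *Epc1* was at -0.12 after median-ratio scaling and *Ep400* at -0.076 after the length correction. *Brpf1*, the scaffold of KAT6A, was at 35.7 and 33.4 TPM in the control pair and 57.7 and 49.7 TPM in the KO-labelled libraries. Its list ran from *Jade1* at 0.86 to *Ing4* at -0.12.

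*Msl2*, a partner of KAT8 in the MSL complex, was at 29.3 and 12.7 TPM in the control pair and 55.5 and 56.3 TPM in the KO-labelled libraries, the order opposite to that of *Kat8*. It had the highest log2 fold change of the MSL and NSL list, 1.48, beside *Kansl1* at 0.92, *Msl1* at 0.29 (-0.03 after median-ratio scaling) and *Mcrs1* at -0.30, the lowest. *Rbbp7*, the histone-binding partner of HAT1, was at 184 and 133 TPM in the control pair and 173 and 154 TPM in the KO-labelled libraries, which lay between the controls. The HAT1 list ran from *Asf1a* at 0.63 to *Ipo4* at -0.40.

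**Figure D5:**
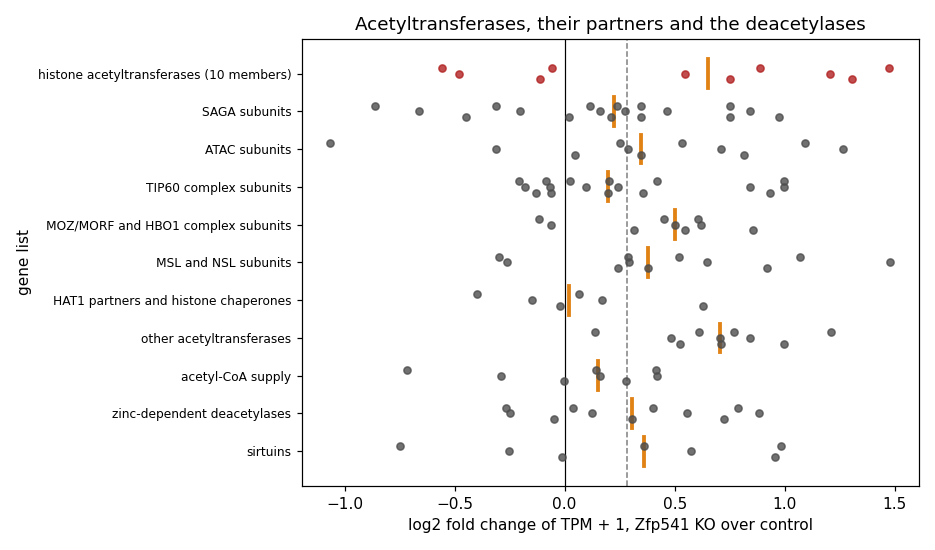
Log2 fold change of TPM + 1 (*Zfp541* KO over control) of each gene tested in the 10 members (red) and in 10 lists of partners, other acetyltransferases, acetyl-CoA enzymes and deacetylases (grey), with the median of each list as an orange bar. Heights within a row only spread the points, and the dashed line is the median of 0.28 over all genes.

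The 10 other acetyltransferases with reported histone activity had a median log2 fold change of 0.71, with 7 higher and none lower in both KO-labelled libraries and none past the FDR in limma (4 at an unadjusted p under 0.05). Over all genes the median was 0.28, with 38.6% higher and 12.1% lower in both and 14.4% at an unadjusted p under 0.05. *Ncoa1*, a nuclear receptor co-activator, was the highest at 1.21, and *Elp3*, the catalytic subunit of Elongator, the lowest at 0.14 and at -0.18 after median-ratio scaling. The 8 genes that supply acetyl-CoA had a median of 0.15, from *Acss1* at 0.42 to *Pdha2*, the testis form of a pyruvate dehydrogenase subunit, at -0.72. *Pdha2* was at 242 and 155 TPM in the control pair and 111 and 124 TPM in the KO-labelled libraries.

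The genes nearest in profile to *Ep300*, by Euclidean distance of centred log2(TPM + 1) over the 4 libraries among 9854 genes averaging 10 TPM or more, were *Msl2* (distance 0.03), *Birc6* (0.08) and *Zbtb38* (0.10). Those nearest to *Kat8* were *Echs1* (0.08), *Atpif1* (0.08) and *Rnf187* (0.09). Over 4 libraries this likeness is a description.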

How the data were processed

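RNA of GFP-positive testis cells was measured in 2 control and 2 *Zfp541* KO samples. Per the labels and the study's methods, the authors trimmed 75-nt single-end reads with Trim Galore 0.5.0 (cutadapt 1.16), aligned them to mm10 with STAR 2.6.0a and deposited TPM per gene from RSEM 1.3.1. TPM keeps no depth, so counting precision is unknown. The labels count testes, not mice, so p-values measure the spread between these samples. The study's test on estimated counts was not repeated. With its own test the paper reported genes changed in both directions, and it names *Kat6a* among the ZFP541-bound genes upregulated in the KO.

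The 14512 genes averaging 1 TPM or more were fitted by label in limma 3.58.1 (R 4.3.3) on log2(TPM + 1). A mean-variance trend was used, and p-values were adjusted by Benjamini-Hochberg (FDR 0.05). Fold changes on this scale understate low genes. Ratios within a library were compared by exact permutation over samples. In simulated data of 14512 genes with 200 changed, 0 were recovered at a log2 change of 2 and 46% at 4. The longest protein-coding GENCODE transcript of a gene gave its length and GC content (99.0% of genes tested). The 27 rows that carry a date for a symbol were kept without a name. Named were the 10 members, *Zfp541*, *Rec8*, 9 partners and deacetylases fixed by symbol, the ends of each list and 3 nearest profiles for the highest and the lowest member. Other genes were named after their values were seen. *Sgf29* and *Kat14* are listed under older symbols. Members and lists were chosen with earlier results of these data known. Other settings tried were the filter, pseudocount, scaling, trend, FDR, length and GC corrections, a replicate block, and leaving out each sample.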

Additional observations from a re-analysis of the deposited data

How the results depend on the processing

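The GC correction, the crossed replicate block and the blocks with a length or GC correction were chosen after seeing the data. With an FDR of 0.1 and under every other alternative with all 4 samples except the crossed block, 0 genes passed in limma. At an unadjusted p under 0.05 in limma there were 2091 genes in the main fit. Under these alternatives there were from 912 (replicate block with length correction) to 2372 (no filter). The crossed replicate block gave 87 genes (7 higher, 80 lower) and 0 members. Deviations of samples with the same number correlated at -0.16 over genes and those of crossed numbers at 0.16, opposites by design with 2 samples per group. These values cannot decide whether the numbers pair the samples. The replicate block as labelled left 0 genes and 0 members past the FDR, the members' median at 0.65 and every ratio as it was. Under it 1107 genes were at an unadjusted p under 0.05 in limma. With 1 sample left out, genes past the FDR ranged from 0 to 6985, members past it from 0 to 6 and the members' median from 0.048 to 0.80 (all genes 0.15 to 0.44). The highest gene count and median came without control 1, the lowest median without control 2, and 6 members passed when each control was left out in turn. The log2 ratio of summed acetyltransferases to deacetylases, KO minus control, ranged from -0.25 to 0.11, the latter without control 1.

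No member changed sign with all 4 samples. With 1 sample left out, log2 fold changes that turned ranged from -0.18 (without control 2) to 1.27 for *Kat2b*, -0.36 to 0.24 (without control 1, and 0.011 without KO 1) for *Kat7*, -0.25 (without control 1) to 1.59 for *Rec8*, and, turning without control 1, -0.55 to 0.13 for *Morf4l1*, -0.41 to 0.17 for *Ing4* and -1.53 to 0.99 for *Hdac7*. Those that turned without control 2 were *Epc1* (-0.063 to 0.46), *Ep400* (-0.27 to 1.11), *Msl1* (-0.36 to 0.95), *Rbbp7* (-0.17 to 0.30, also -0.016 without KO 1) and *Ipo4* (-0.95 to 0.16). Median-ratio scaling turned *Epc1* (-0.12), *Msl1* (-0.027), *Rbbp7* (-0.26) and *Elp3* (-0.18), and quantile normalization *Epc1* (-0.078) and *Elp3* (-0.094). Correcting for length turned *Ep400* (-0.076) and *Ing4* (0.098), and correcting for GC content *Rbbp7* (-0.084), in each case also with the replicate block. The cause was not tested. Genes above 0 made up 69.0% as deposited, 49.7% after median-ratio scaling and 55.8% after quantile normalization.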
